A study of Mus musculus with 4 samples.

Results

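In all, 9 S100 genes were followed through the skin of mice labelled as lacking the transcription factor EGR1 and of wild-type (WT) mice, with and without house dust mite (HDM) allergen on a damaged skin barrier. The genes were taken by symbol, though with earlier results of these data known, so the choice was not blind to their values. They are the calprotectin subunit genes S100a8 and S100a9 and the small S100 genes S100a3, S100a4, S100a6, S100a10, S100a11, S100a14 and S100a16. All 9 were found among the 23203 gene symbols that stand on 1 line of the tables. All 9 also belonged to the 11600 measured genes, which have a 4-library mean above 5.11 on the log2 scale, the median of all symbols.

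The study held 4 libraries of adult C57BL/6 skin, 1 per group, made with a QuantSeq kit that reads close to the 3′ ends of transcripts. The groups were Egr1 knockout (KO) with sodium dodecyl sulfate (SDS) and HDM extract, WT with SDS and HDM extract, KO with SDS alone and WT with SDS alone. The groups with SDS alone are the ones titled naive, so all 4 groups carried the detergent, per the treatment label. The labels describe shaving of the ear and neck, SDS on the shaved skin and both ears, and for HDM a further 100 mg of cream, repeated 2 times a week for 3 weeks. Egr1 knockout mice were bred on the same background and genotyped by PCR; the labels do not say how the gene was disrupted. The libraries held 9428151 to 10108762 recovered reads each. With 1 library per group no difference has a replicate check or a p-value: each sets one library against another, and the 95% intervals (exact, Clopper-Pearson) cover counting error alone.

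S100 proteins are small calcium-binding proteins built around a pair of EF-hand motifs, and most work as dimers. Calcium binding opens a surface through which they hold other proteins, such as annexins and myosin. Some also leave the cell: calprotectin, the S100A8 and S100A9 heterodimer, binds zinc and manganese away from microbes and signals through TLR4 and the receptor RAGE. In skin, calprotectin is scarce in resting epidermis and abundant in psoriatic, wounded and eczematous epidermis and in neutrophils.

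Most of the family lies in the epidermal differentiation complex. In GENCODE M21 (GRCm38, the assembly also named mm10) all 9 genes are on chromosome 3. Of these, 7 occupy 169 kb, in the order S100a14, S100a16, S100a3, S100a4, S100a6, S100a8 and S100a9. S100a8 spans chr3:90668978-90670035 on the plus strand, and S100a9 spans chr3:90692632-90695721 on the minus strand. S100a11 and S100a10 follow 2825 kb further on, beyond the cornified envelope genes. Of the 9, S100a3 overlaps S100a2 and a predicted gene on its own strand and a small nuclear RNA gene on the other, and S100a4 overlaps that predicted gene too. No source used here says whether the authors' counting used strand or shared reads. S100a2, inside the annotated span of S100a3 and outside the lists used here, had 4 and 8 reads in the KO-labelled and WT HDM libraries and 0 in both naive libraries.

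Promoter windows from RefSeq (GRCm38.p6, from 250 bases before a transcript start to 50 after it) were matched for 7 of the 9 genes, with 11 windows. Those of S100a8 and S100a9 are shown because both genes stood highest under HDM, that of S100a4 because it was the one member with its lowest value in KO-labelled HDM skin, and that of S100a11 as a member with little difference. Capitals mark matches to the AP-1 motif TGANTCA, the C/EBP motif TTGCNNAA, the EGR motif GCGNGGGCG or the TATA motif TATAAA, on either strand.
S100a8, chr3:90668821-90669120, plus strand: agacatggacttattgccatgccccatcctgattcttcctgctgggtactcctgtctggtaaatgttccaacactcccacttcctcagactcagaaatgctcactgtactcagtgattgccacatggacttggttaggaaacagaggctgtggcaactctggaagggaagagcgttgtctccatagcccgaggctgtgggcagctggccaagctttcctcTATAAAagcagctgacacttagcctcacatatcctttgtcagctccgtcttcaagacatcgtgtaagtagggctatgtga
S100a9, chr3:90695672-90695971, minus strand: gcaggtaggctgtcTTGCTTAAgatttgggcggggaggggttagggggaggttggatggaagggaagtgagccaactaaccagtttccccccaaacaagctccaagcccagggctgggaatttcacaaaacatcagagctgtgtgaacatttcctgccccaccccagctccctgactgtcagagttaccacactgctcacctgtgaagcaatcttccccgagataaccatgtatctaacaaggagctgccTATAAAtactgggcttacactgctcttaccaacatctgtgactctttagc
S100a4, chr3:90603520-90603819, plus strand: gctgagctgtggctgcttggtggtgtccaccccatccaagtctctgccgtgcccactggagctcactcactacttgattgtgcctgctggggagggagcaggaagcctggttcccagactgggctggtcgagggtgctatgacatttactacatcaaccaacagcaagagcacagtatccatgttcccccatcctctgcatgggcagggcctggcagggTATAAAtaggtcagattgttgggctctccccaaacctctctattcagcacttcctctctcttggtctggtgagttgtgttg
S100a11, chr3:93520246-93520545, plus strand: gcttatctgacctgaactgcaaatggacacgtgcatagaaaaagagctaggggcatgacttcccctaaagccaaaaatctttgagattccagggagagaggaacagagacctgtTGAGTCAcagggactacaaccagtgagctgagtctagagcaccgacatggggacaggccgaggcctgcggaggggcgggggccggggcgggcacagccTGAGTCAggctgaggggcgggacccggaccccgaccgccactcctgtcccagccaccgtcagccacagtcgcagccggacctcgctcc
The letters of the EGR motif were in 0 of the 11 windows, against 5.55% of 32851 RefSeq windows. TATAAA was in 4 of the 11, those of S100a8, S100a9, S100a4 and 1 of 4 windows of S100a3, against 13.6% of all windows. TGANTCA was in 2, once in a window of S100a16 and at 2 places in that of S100a11, against 7.81%. TTGCNNAA was in 1, that of S100a9, against 10.8%. No motif overlapped another in these windows. A match describes letters and is not a binding site, and a missing match says only that these letters are not in the window.

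Before the S100 values, 4 facts of the libraries bear on them. Egr1 itself, read near its 3′ end, stood at 11.68 and 10.31 in the KO-labelled and WT HDM libraries and at 11.53 and 11.02 in the KO-labelled and WT naive libraries (log2 values), so it was not lower where the label says KO. The reads may lie outside the disrupted part, so this checks no label, and the libraries are called KO-labelled. In KO-labelled naive skin 0 reads were found for 336 genes whose count was at least 50 everywhere else. The other libraries had 0 to 5 such genes, and S100a8 and S100a9 are among the 336. Xist, made from the inactive X chromosome, had 2433 and 2195 reads in the KO-labelled and WT HDM libraries and 40 and 10 in the KO-labelled and WT naive ones, and the Y-linked Ddx3y had 1 and 1 against 2431 and 1925, so the HDM difference cannot be told apart from one of sex. The basal keratin gene Krt5 had 16875 to 86162 reads in every library, which alone cannot settle that the tissue was skin only. Krt2 of the upper epidermis had 1 and 4493 reads in the KO-labelled and WT HDM libraries and 93567 and 61036 in the KO-labelled and WT naive ones, and 8 cartilage genes took 0.0552% and 0.203% of reads in the HDM libraries against 0.259% and 0.327% in the naive ones, in the same order. Salivary secretory genes took 0.000742% and 0.00682% against 0.758% and 6.43%. Markers of the sampled tissue thus differed between libraries, and their part in the S100 values was not tested.

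Together the 9 genes took 1.33% of reads in KO-labelled HDM skin and 2.55% in WT HDM skin, against 0.445% and 0.422% in KO-labelled and WT naive skin. Calprotectin made most of that difference: S100a8 and S100a9 held 0.805% and 1.96% of reads in the HDM libraries and 0% and 0.00525% in the naive ones, in the same order. The other 7 genes held 0.523% and 0.592% with HDM and 0.445% and 0.416% in naive skin.

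**Figure D1:**
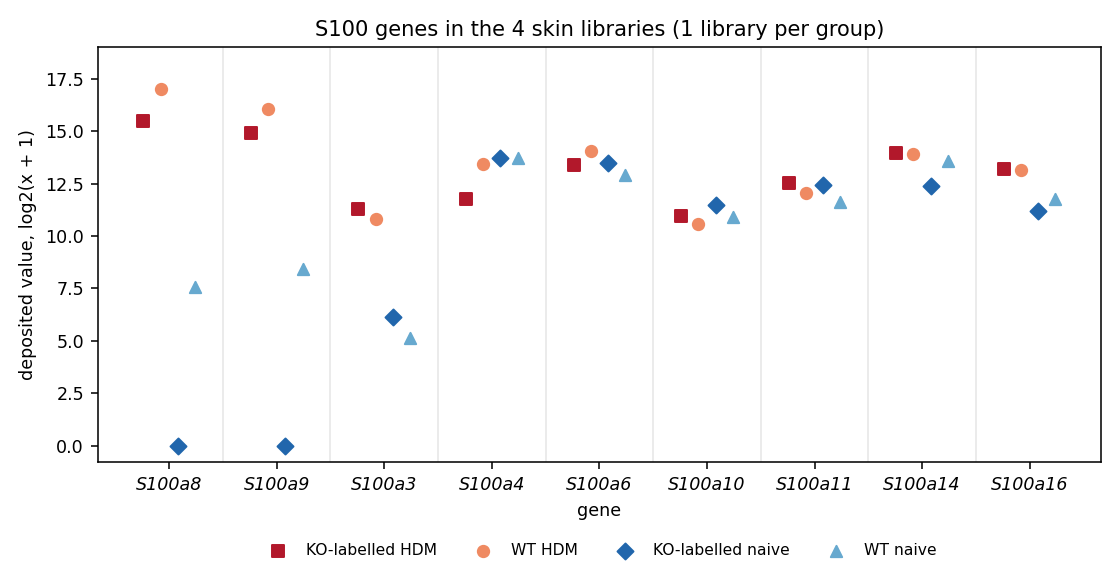
Deposited log2(x + 1) values (vertical axis) of the 9 S100 genes (horizontal axis) in KO-labelled HDM, WT HDM, KO-labelled naive and WT naive skin, 1 symbol per library. S100a8, S100a9 and S100a3 stand far higher in both HDM libraries, S100a8 and S100a9 are at 0 in KO-labelled naive skin, and S100a4 is lowest in KO-labelled HDM skin at 11.77.

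HDM against naive skin set libraries with the allergen cream on barrier damage against those with barrier damage alone. As given above, these libraries also differed in sex-linked transcripts. The rule for a difference was 2-fold, or 1 on the log2 scale. By it 5 of 9 S100 genes stood above and 1 below naive skin in the KO-labelled libraries, against 21.7% of measured genes higher and 18.2% lower. In WT skin 5 of 9 were higher and 0 lower, against 14.5% and 12.7%. The 4 genes S100a8, S100a9, S100a3 and S100a16 passed 2-fold upward in both genotypes, which 7.06% of measured genes did. The median log2 difference of the 9 genes was 1.55 in KO-labelled and 1.15 in WT skin, beside 0.06 and 0.03 over all measured genes. It was 0.08 and 0.43 for the 7 genes other than S100a8 and S100a9. Leaving out the 2 genes lost in KO-labelled naive skin, 3 of 7 stood above and 1 below in KO-labelled libraries, against 20.4% and 18.5% of the measured genes left. In WT skin it was 3 of 7 and 0, against 14.2% and 12.9%.

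S100a8 encodes the smaller subunit of calprotectin. It had log2 values of 15.48 and 17.00 in KO-labelled and WT HDM skin, from 48715 and 121598 reads, and of 0 and 7.57 in KO-labelled and WT naive skin, from 0 and 179 reads. Both HDM libraries lie above both naive libraries, and the order of the 4 is WT HDM, KO-labelled HDM, WT naive, KO-labelled naive. In WT skin the HDM library was 693-fold higher than the naive one (599 to 807). A count of 0 allows up to 3 reads, so in KO-labelled skin S100a8 was at least 16290-fold higher with HDM. This bound rests on the library with the 336 genes at 0. Of 11600 measured genes, 0.0517% had a larger difference in WT skin.

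S100a9 encodes the partner subunit, and its gene lies near S100a8 on the other strand. Its log2 values were 14.91 and 16.05 in KO-labelled and WT HDM skin and 0 and 8.43 in KO-labelled and WT naive skin. The reads were 32679 and 63030 with HDM, and 0 and 325 in naive skin. The order of the libraries is that of S100a8. In WT skin the gene was 198-fold higher with HDM (178 to 221), and in KO-labelled skin at least 10928-fold higher under the same limit.

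The 2 calprotectin genes were each other's nearest pattern among all measured genes. Likeness was taken as the mean absolute difference over the 4 libraries of log2 values centred on each gene's mean, and it was 0.60 for this pair. The next genes were Stfa1, a stefin cysteine protease inhibitor gene of mice, at 1.28 from S100a8 and 0.69 from S100a9, and Rptn, the fused-type S100 gene repetin, at 1.37 and 1.29. Both also had 0 reads in KO-labelled naive skin, so part of the likeness is that shared 0. Stfa1 belongs to a cluster of near-identical copies, which makes its single value uncertain.

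Calprotectin is made both by stressed keratinocytes and by neutrophils, and in bulk skin more cells of a type cannot be told apart from more RNA per cell. Of 8 measured genes of stressed keratinocytes, 8 were higher with HDM in KO-labelled skin and 7 in WT skin, with 0 lower in either and median differences of 8.07 and 7.99 on the log2 scale. Of all measured genes 21.7% and 14.5% were higher, in the same order. Genes such as Sprr2d and Sprr2h, the latter with 0 and 5 reads in naive skin, passed the filter through their HDM values alone. The filter thus partly fixed this count. Krt6b, a keratin of activated epidermis, had 30133 and 34296 reads in KO-labelled and WT HDM skin against 21 and 37 in KO-labelled and WT naive skin. Sprr2d, a cornified envelope precursor gene with close copies, had the highest difference of the list in both genotypes, with 3191 and 9519 reads against 0 and 2. Serpinb3a, a serpin gene, had the lowest in WT skin, with 240 and 668 reads against 3 and 600. The list as a whole took 2.81% and 2.53% of reads with HDM and 0.0160% and 0.0427% in naive skin. Of 11 neutrophil genes in the files, 3 were measured, and they differed in direction.

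Cxcr2, the neutrophil chemokine receptor gene, had 163 and 196 reads in KO-labelled and WT HDM skin against 3 and 16 in KO-labelled and WT naive skin. Itgam, an integrin gene of myeloid cells, had 277 and 465 reads with HDM against 426 and 65 in naive skin, in the same order. Il1r2, the decoy interleukin 1 receptor gene, had 246 and 369 with HDM against 1878 and 937 in naive skin. The other 8 genes of the list lay below the filter. Of these, Mmp8, a neutrophil collagenase gene, had 213 and 124 reads with HDM and 0 in both naive libraries. Csf3r, the receptor gene of a neutrophil growth factor, had 70 and 68 against 1 and 22, and Retnlg had 88 and 62 against 0 and 19. The granule protein gene Camp had 6 and 0 reads with HDM against 39 and 12 in naive skin. Ltf, Ngp and Elane had at most 10 reads in any library, and Mpo had 0 in all 4. The part of each cell type in the calprotectin values was not tested.

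**Figure D2:**
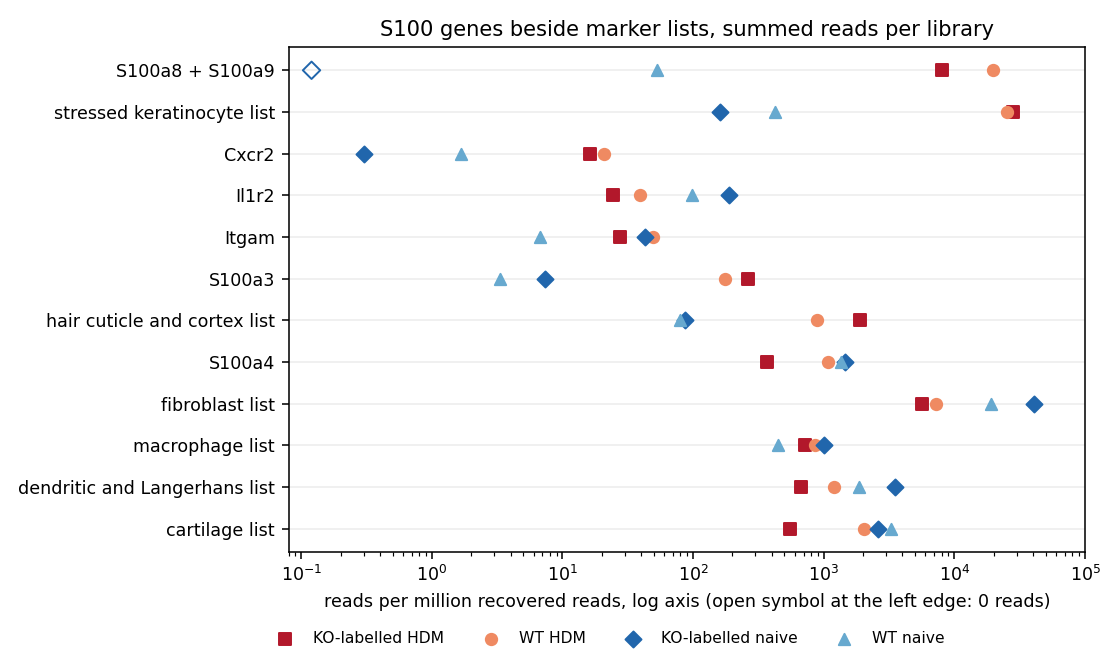
CPM, reads scaled to a common library total, on a log axis (horizontal) for S100 genes, 3 neutrophil genes and summed marker lists (rows), 1 symbol per library, with an open symbol for 0 reads. Calprotectin and the stressed keratinocyte list are highest in both HDM libraries, and S100a3 lies on the same side as the hair list. The fibroblast, dendritic and cartilage lists are lowest in KO-labelled HDM skin, as S100a4 is. The macrophage list is not: it is lowest in WT naive skin, at 0.0444% of reads against 0.0715% in KO-labelled HDM skin.

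S100a3 encodes a cysteine-rich S100 protein of the hair cuticle, which the peptidylarginine deiminase PADI3 citrullinates. Its log2 values were 11.28 and 10.81 in KO-labelled and WT HDM skin and 6.12 and 5.12 in KO-labelled and WT naive skin, from 2646 and 1666 reads against 73 and 32. The libraries order as KO-labelled HDM, WT HDM, KO-labelled naive, WT naive, with a wide gap between the treatments. The gene was 36.4-fold higher with HDM in KO-labelled skin (28.8 to 46.5) and 53.1-fold in WT skin (37.5 to 78.0). Of 8 measured hair cuticle and cortex genes, 7 were higher with HDM and 0 lower in each genotype, with medians of 8.23 in KO-labelled and 5.47 in WT skin. Of all measured genes 21.7% and 14.5% were higher, in the same order. Krt31 had 0 and 6 reads and Krt35 0 and 4 in KO-labelled and WT naive skin. Such genes passed the filter through their HDM values alone, so the filter partly fixed this count. Krt85, a hair keratin gene with the highest difference in KO-labelled skin, had 3375 and 1200 reads with HDM against 0 and 37 in naive skin. Selenbp1 had the lowest, with 818 and 466 reads against 626 and 453. Padi3 itself, below the filter, had 412 and 265 reads with HDM against 0 and 4 in naive skin. The hair list took 0.190% and 0.0887% of reads in KO-labelled and WT HDM skin and 0.00866% and 0.00797% in KO-labelled and WT naive skin. Follicle content was not measured apart from these genes, and its part in the S100a3 values was not tested.

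Among the genes nearest to S100a3 in pattern were Pinlyp at 0.26 and Krt73 at 0.43, over 4 libraries. Krt73 encodes a keratin of the inner root sheath of the hair follicle. No other S100 gene of the set was among the 3 nearest of S100a3.

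S100a14 and S100a16 encode S100 proteins of epithelia, and their human forms are reported to bind each other. S100a16 had log2 values of 13.20 and 13.16 in KO-labelled and WT HDM skin and 11.21 and 11.78 in KO-labelled and WT naive skin. Both HDM libraries are above both naive ones and nearly level with each other. It was 3.97-fold higher with HDM in KO-labelled skin (3.80 to 4.15) and 2.61-fold in WT skin (2.51 to 2.72). S100a14 stood at 13.95 and 13.89 with HDM and at 12.40 and 13.57 in naive skin, in the same order of genotypes, so its lowest library was KO-labelled naive. The difference with HDM was 2.93-fold in KO-labelled skin (2.84 to 3.02) and 1.25-fold in WT skin (1.22 to 1.28). Adjacent on the chromosome, the 2 genes had a pattern distance of 0.38, and neither was among the 3 nearest genes of the other.

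S100a6 encodes calcyclin, found in proliferating keratinocytes and fibroblasts. Its log2 values were 13.37 and 14.07 in KO-labelled and WT HDM skin and 13.48 and 12.92 in KO-labelled and WT naive skin, so WT HDM is the highest library and WT naive the lowest. It was 2.22-fold higher with HDM in WT skin (2.16 to 2.28) and 1.08-fold lower in KO-labelled skin (1.05 to 1.11). Cacybp, the gene of the calcyclin-binding protein, had log2 differences with HDM of 0.50 in KO-labelled and 1.05 in WT skin.

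S100a4 encodes a partner of non-muscle myosin known from fibroblasts, macrophages and dendritic cells. It had log2 values of 11.77 and 13.43 in KO-labelled and WT HDM skin and 13.73 in both naive libraries. WT HDM and both naive libraries lie close together, and KO-labelled HDM is apart, 3.89-fold below KO-labelled naive (3.75 to 4.03). In WT skin the HDM library was 1.24-fold below the naive one (1.20 to 1.27). Markers of cells known to make S100a4 are given beside it, with 18.2% of measured genes lower with HDM in KO-labelled skin and 12.7% in WT skin. Of 8 fibroblast genes 5 were lower and 0 higher with HDM in KO-labelled skin (median -2.01), and of 5 measured dendritic and Langerhans genes 5 were lower (median -2.36). Col3a1, a collagen gene, had 7316 and 12345 reads with HDM against 81794 and 23128 in naive skin. Cd74, the invariant chain gene of antigen-presenting cells, had 2666 and 3312 against 18124 and 8775. In WT skin 2 of 8 fibroblast genes were lower and 1 higher (median -0.30), and 2 of 5 dendritic genes were lower (median -0.71). Macrophage genes had 3 of 9 lower and 0 higher in KO-labelled skin (median -0.12), and 4 of 9 higher and 0 lower in WT skin (median 0.88). Their part in the S100a4 values was not tested.

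S100a10 and S100a11 differed by less than 2-fold in every comparison. S100a10, whose protein has lost calcium binding and pairs with annexin A2, had log2 values of 10.96 and 10.60 in KO-labelled and WT HDM skin and 11.49 and 10.92 in KO-labelled and WT naive skin. It was 1.44-fold lower with HDM in KO-labelled skin (1.37 to 1.53) and 1.25-fold lower in WT skin (1.16 to 1.34). S100a11, an annexin A1 partner found in the cornified envelope, had 12.52 and 12.06 with HDM and 12.44 and 11.63 in naive skin. Its difference with HDM was 1.05-fold higher in KO-labelled skin (1.02 to 1.09) and 1.35-fold higher in WT skin (1.28 to 1.41). For both genes the KO-labelled library lay above the WT library in each treatment. A pseudogene, S100a11-ps, is annotated in the genome, so reads could be shared with it.

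The annexin partner gene of S100a10 stood higher with HDM, past 2-fold in WT skin only. Anxa2 had log2 values of 13.35 and 13.52 in KO-labelled and WT HDM skin and 12.42 and 12.23 in KO-labelled and WT naive skin, 1.90-fold higher with HDM in KO-labelled skin (1.84 to 1.96) and 2.44-fold in WT skin (2.36 to 2.53). Anxa1 differed by 0.39 in KO-labelled and -0.19 in WT skin on the log2 scale. Among 13 measured partner and receptor genes 1, Tlr4, was higher and 2 lower with HDM in KO-labelled skin (median -0.43). Of the same 13, 2 were higher and 2 lower in WT skin (median -0.19). By the same rule 21.7% of measured genes rose and 18.2% fell from naive to HDM between the KO-labelled libraries. Between the WT libraries 14.5% rose and 12.7% fell.

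Tlr4 and Ager, the genes of the calprotectin receptors named above, did not stand higher with HDM in WT skin by the 2-fold rule. Tlr4 had 89 and 97 reads in KO-labelled and WT HDM skin against 1 and 96 in KO-labelled and WT naive skin, so KO-labelled naive is the library apart. Ager, the gene of RAGE, had 30 and 31 reads with HDM against 75 and 61 in naive skin, 2.49-fold lower in KO-labelled skin (1.61 to 3.94) and 1.93-fold lower in WT skin (1.23 to 3.07).

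**Figure D3:**
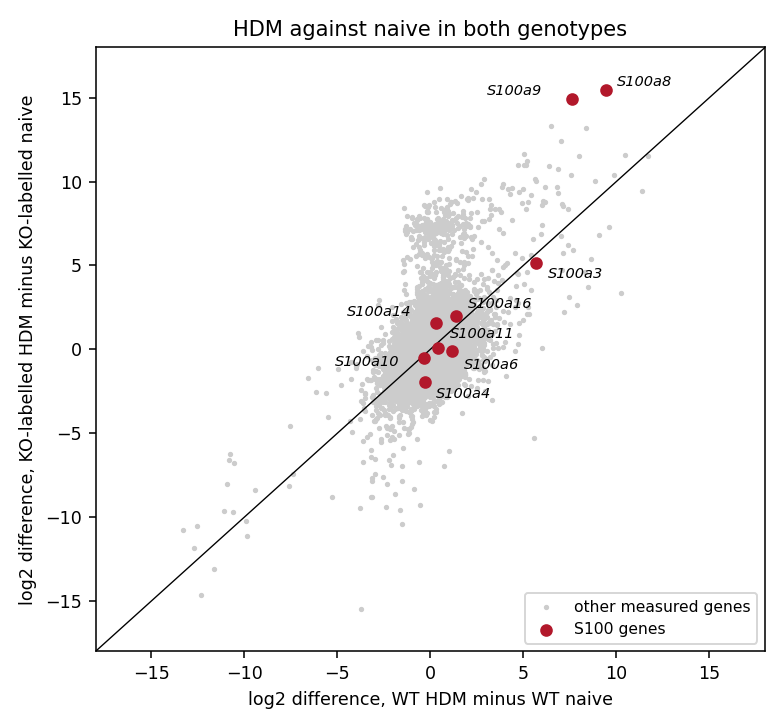
Log2 difference of HDM minus naive skin in KO-labelled libraries (vertical axis) against the same in WT libraries (horizontal axis) for the 9 S100 genes (red, named) and the other measured genes (grey), with the line of equal difference. S100a8 at 15.48 and 9.43 and S100a9 at 14.91 and 7.63 lie above the line, where 234 measured genes at 0 reads in KO-labelled naive skin also contribute, and S100a4 at -1.96 and -0.31 lies below it.

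KO-labelled against WT skin under HDM set the HDM library labelled KO against that labelled WT. By 2-fold or more 0 of 9 S100 genes were higher and 3 were lower, S100a8, S100a9 and S100a4, against 3.06% of measured genes higher and 4.66% lower. S100a8 stood 2.87-fold below WT in KO-labelled skin (2.84 to 2.90) and S100a9 2.21-fold below it (2.19 to 2.24). S100a4 was 3.15-fold lower (3.04 to 3.28), and 98.5% of measured genes had a higher difference than S100a4. In the same comparison 0 of 8 fibroblast genes (median -0.37) and 0 of 9 macrophage genes (median -0.45) passed 2-fold in either direction, and 2 of 5 dendritic and Langerhans genes were lower (median -0.90). S100a6 was 1.62-fold lower (1.58 to 1.66). The other 5 genes lay between 1.02-fold and 1.38-fold higher, with S100a16 at 1.02-fold (0.995 to 1.05), within counting error. The median of the 9 was 0.03 on the log2 scale, beside -0.01 over measured genes. Without S100a8 and S100a9, 0 of 7 were higher and 1 lower, against 3.00% and 4.59% of the measured genes left.

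Some other epidermal genes were lower in KO-labelled HDM skin beside calprotectin, and others were not. By 2-fold or more, 3 of the 8 stressed keratinocyte genes were below WT there and 0 above it (median -0.87). The shares of measured genes were 4.66% lower and 3.06% higher. In the same list Krt6a was 1.20-fold higher (1.19 to 1.21) and Krt17 1.59-fold higher (1.56 to 1.62). Of 8 measured hair cuticle and cortex genes, 4 were higher and 0 lower (median 0.93). Of 38 measured genes without an S100 symbol in the stretch of chromosome 3 that holds the 9 genes, 29 were lower and 3 higher (median -1.67), many of them cornified envelope genes with near-identical copies. Of the 3 measured neutrophil genes 0 passed 2-fold: Cxcr2 was 1.38-fold (1.12 to 1.71), Il1r2 1.72-fold (1.46 to 2.03) and Itgam 1.93-fold lower (1.66 to 2.24). Below the filter, Mmp8 was higher, with 213 against 124 reads and an interval of 1.19-fold to 1.88-fold, Retnlg was 1.24-fold higher (0.883 to 1.74) and Csf3r was 1.12-fold lower (0.787 to 1.58), the last 2 within counting error. Krt2 and the summed cartilage genes, given above, were also lower in KO-labelled than in WT HDM skin, and their part was not tested.

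**Figure D4:**
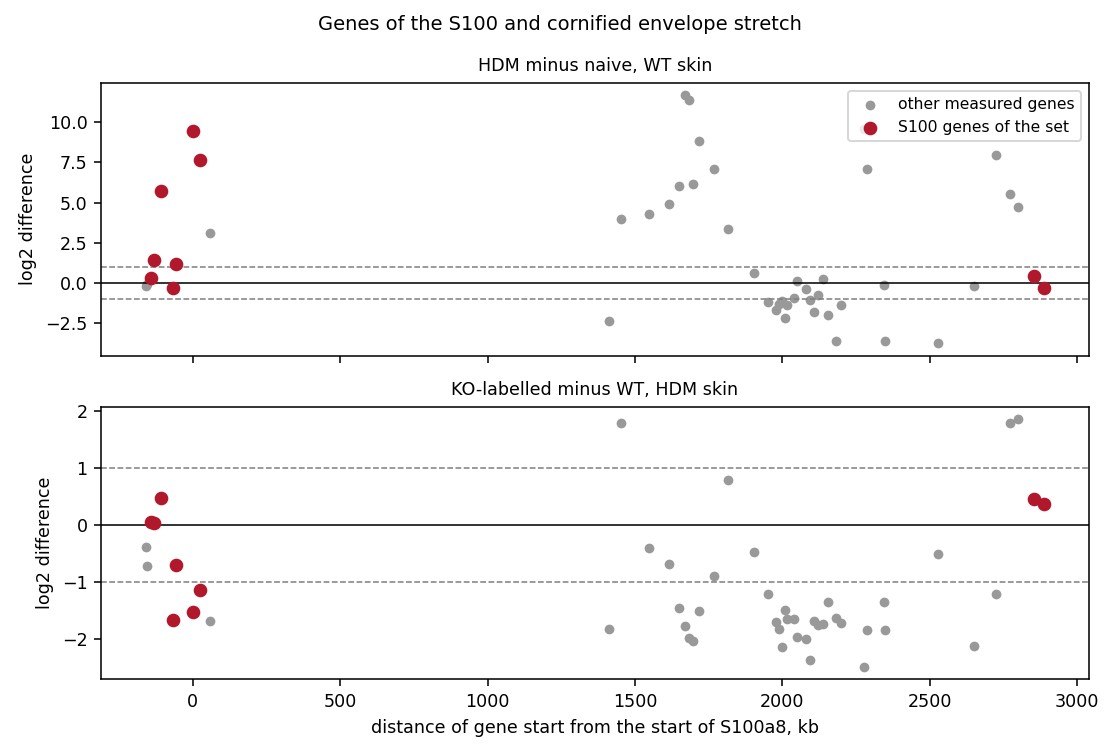
Log2 difference (vertical axes) of measured genes against the distance of the gene start from that of S100a8 in kb (horizontal axis), for HDM minus naive in WT skin (top) and KO-labelled minus WT under HDM (bottom), with dashed lines at 2-fold. The 9 S100 genes (red) sit at both ends of the stretch, and in the bottom panel most of the genes between them lie under the lower dashed line while S100a10 and S100a11 lie above 0.

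Naive skin gave the genotype difference without HDM, KO-labelled against WT. By 2-fold or more 0 of 9 were higher and 3 lower, S100a8, S100a9 and S100a14, against 13.6% of measured genes higher and 17.1% lower. With 0 reads against 179 and 325, the KO-labelled library lay at least 67.3-fold below WT for S100a8 and at least 122-fold for S100a9, under the limit of 3 reads. S100a14 was 2.26-fold lower (2.19 to 2.33), and S100a16 1.49-fold lower (1.41 to 1.57). Without the genes lost in the KO-labelled naive library, 1 of 7 was lower, against 15.7% of the measured genes left.

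S100a3 lay just under the rule, with 73 against 32 reads and a log2 difference of 0.99. The hair cuticle and cortex list went the other way here, with 1 of 8 measured genes higher and 5 lower (median -1.81). Of the 10 hair genes in the files, 6 had 0 reads in the KO-labelled naive library. S100a11 was 1.75-fold (1.68 to 1.83), S100a10 1.49-fold (1.41 to 1.58) and S100a6 1.48-fold higher (1.44 to 1.53). S100a4 was level, with 14509 and 12902 reads and a ratio of 0.997 (0.973 to 1.02). In naive KO-labelled skin 4 of 8 fibroblast genes and 3 of 9 macrophage genes were higher than in WT, with 0 lower in either list. Among 5 measured dendritic and Langerhans genes 1 was higher and 0 lower (median 0.87). Of all measured genes 13.6% were higher and 17.1% lower.

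**Figure D5:**
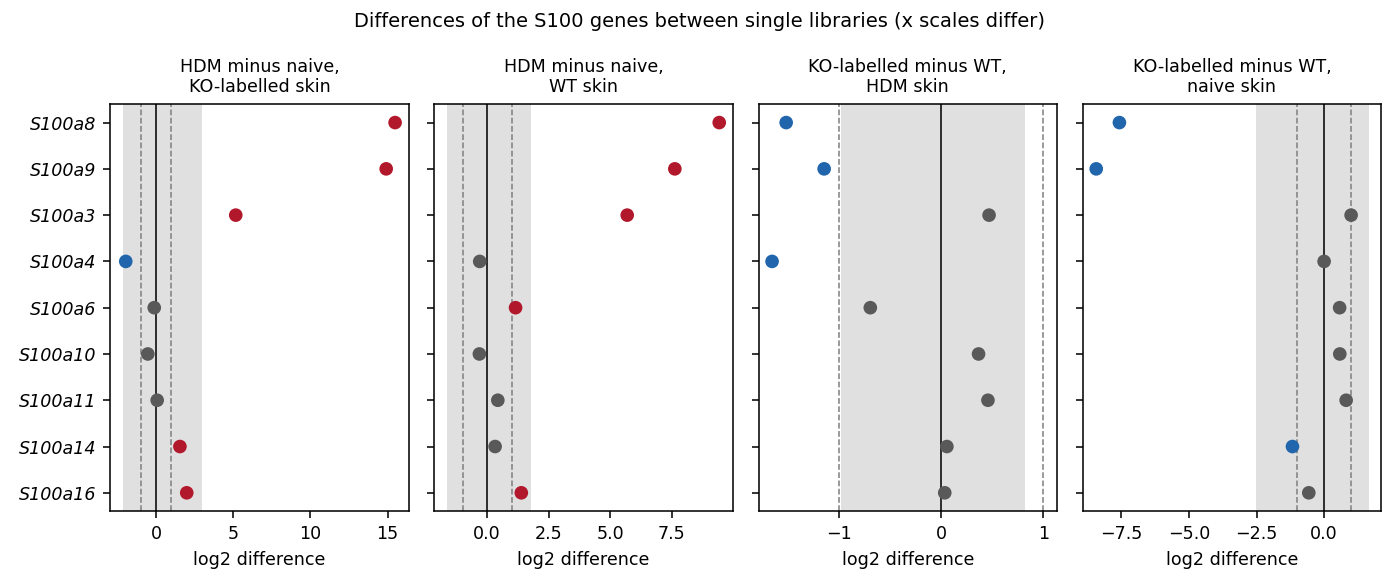
Log2 differences (horizontal axes, scales differ) of the 9 S100 genes (rows) in the 4 comparisons, each between 2 single libraries, with red for higher and blue for lower by 2-fold or more, dashed lines at 2-fold and a grey band from the 5th to the 95th percentile of all measured genes. S100a8, S100a9 and S100a3 lie right of the band under HDM in both genotypes, and S100a8, S100a9 and S100a4 lie left of it in KO-labelled against WT HDM skin.

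The difference with HDM in KO-labelled skin minus that in WT skin reached 1 or more on the log2 scale, in either direction, for 5 of the 9 S100 genes, against 36.9% of measured genes. It was 6.05 for S100a8 and 7.28 for S100a9, both of which rest on the 0 in KO-labelled naive skin, and 1.23 for S100a14. It was -1.65 for S100a4 and -1.26 for S100a6. S100a3, S100a10, S100a11 and S100a16 lay between -0.53 and 0.61. No test of these gaps is possible with 1 library per group.

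Beside S100a2, the list of other S100 family genes had 7 members in the files, of which 3 were measured. With HDM 3 of these 3 were lower in KO-labelled skin and 1 in WT skin, against 18.2% and 12.7% of measured genes. S100b, known from Schwann cells, melanocytes and cartilage, had 81 and 994 reads in KO-labelled and WT HDM skin against 8110 and 4804 in KO-labelled and WT naive skin. S100a1, known from muscle and cartilage, had 581 and 665 against 1643 and 781, and its neighbour S100a13 had 453 and 649 against 1613 and 688. All 3 were lowest in KO-labelled HDM skin and highest in KO-labelled naive skin. S100a7a, the mouse relative of psoriasin, had 19 and 31 reads in KO-labelled and WT HDM skin and 0 in both naive libraries, at least 6.35-fold and 10.5-fold higher with HDM. S100g, the gene of calbindin-D9k, had 7 and 9 reads with HDM against 72 and 13 in naive skin. S100a5 and S100z had at most 5 reads in any library.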

How the data were processed

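The authors deposited 1 table per library of log2 values with 3 decimals for 23282 lines. Bowtie2, bedtools and mm10 are named without version or role, per the submitters' processing notes. No source used here gives the normalization, counting or annotation. Undoing log2(x + 1), low values lay near whole multiples of 1 step per library; each deposited log2 value was therefore read as log2(x + 1) of scaled reads. Dividing by the step and rounding gave reads. Between 95.0% and 98.9% of genes with 1 to 200 reads were whole within 0.1; larger read numbers are approximate. Symbols on more than 1 line (35 symbols, 79 lines) were left out.

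Folds are ratios of scaled reads with exact 95% intervals conditional on their sum. A count of 0 is taken as up to 3 reads. Without molecular identifiers, reads are not independent molecules. Calls use the difference of deposited log2 values at 2-fold. Read recovery, calls and intervals were tried on simulated counts that held counting error alone. That trial cannot speak to spread between animals or to reads that are not independent. The genes named are the 9 members, the listed S100 genes, extremes and binding partners of the lists, and the 3 nearest patterns of S100a8, S100a9 and S100a3, of which 1 is not reported here. Egr1, Krt6b, the neutrophil genes below the filter, Padi3, Tlr4, S100a2 and the library checks were named after their values were seen. Members and lists were chosen with earlier results of these data known. Il36a, Il36g, Ly6g and S100a7l2 of the lists matched no symbol. Alternatives were 3 scalings, 2 treatments of low values, a 1.5-fold rule and other filters. Work was done in Python (3.11.15) with matplotlib (3.10.9), scipy (1.17.1), pandas (2.3.3) and numpy (2.4.6).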

Additional observations from a re-analysis of the deposited data

Results flagged for a closer look

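The difference with HDM had opposite signs in the 2 genotypes for S100a6, with counting intervals on opposite sides of no difference: -0.11 in KO-labelled and 1.15 in WT skin on the log2 scale, a gap of -1.264. Taken between genotypes, S100a6 differed by -0.695 in KO-labelled skin under HDM and by 0.57 in naive skin. The gap of -1.264 between these is the same quantity by arithmetic and no second result. S100a14 was 0.06 higher in KO-labelled than in WT skin under HDM and lower than WT by -1.17 in naive skin, a gap of 1.229. These gaps were not tested, since each group holds 1 library. A gap of at least 1 in either direction was found for 36.9% of measured genes and for 5 of the 9 S100 genes.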

How the results depend on the processing

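No paired analysis was possible because each group holds 1 library. Across 5 alternatives of scaling, pseudocount and treatment of 0, 180 member differences were recomputed; 0 of those past 2-fold changed sign, and 4 changed their side of the rule. Of those under 2-fold, 3 changed sign. All 4 were S100a3 in KO-labelled against WT naive skin, with values of 1.12 (scaling by total reads), 1.01 (median of ratios), 1.02 (total without the 50 most abundant genes of any library) and 1.01 (no pseudocount). Scaling by total reads moved the median of all measured genes between genotypes in naive skin to 0.09, against -0.03 as deposited, and put S100a4 there at 0.12. For members with reads in both libraries the largest shift was 0.154 on the log2 scale. Differences that rest on the 0 in KO-labelled naive skin moved further. A pseudocount of 5 took the HDM difference there from 15.48 to 13.16 for S100a8 and from 14.91 to 12.58 for S100a9. Between genotypes in naive skin it gave -5.28 and -6.12, against -7.57 and -8.43 as deposited. The KO-labelled minus WT gap of the HDM differences fell from 6.05 to 3.76 and from 7.28 to 4.97. With a 1.5-fold rule 5 members, and not 3, passed in naive skin between genotypes. Chosen after seeing the data, leaving out S100a8 and S100a9 left 3 members past 2-fold with HDM in WT skin, 1 between genotypes under HDM and 1 in naive skin.

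The share of measured genes past the rule in either direction was 39.9% and 27.2% for HDM in KO-labelled and WT skin, and 7.72% and 30.7% between genotypes under HDM and in naive skin. It became 60.6%, 50.1%, 22.0% and 52.1% at 1.5-fold. Between genotypes it was 22.0% under HDM without a filter on low values, and 4.29% under HDM and 17.0% in naive skin with a stricter filter. Depth limits the values of S100a3 in naive skin, which rest on 73 and 32 reads in KO-labelled and WT skin, and of the genes at 0.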
